A study of Homo sapiens with 16 samples.

Results

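Collagens and laminins are secreted proteins of the extracellular matrix. A collagen molecule is a trimer of alpha chains wound into a triple helix, and each alpha chain has its own gene. Fibrillar collagens form the fibres of connective tissue, type IV collagen forms the sheet-like network of basement membranes, and type VI collagen forms beaded microfibrils. A laminin is a heterotrimer of an alpha, a beta and a gamma chain, which epithelial cells lay down in their basement membrane and bind through integrins and dystroglycan. The genes described here are all those whose symbol is that of a collagen alpha chain or a laminin chain in the table of normalized values of the series. There are 54 of them, 42 collagen and 12 laminin genes, among 40888 genes in that table. Within the table they were taken by symbol and not by value. The symbol pattern was itself chosen with earlier results of these data known, and genes of the pattern without any count are absent from the table.

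RNA was measured in VCaP, a cell line from human prostate cancer that carries a TMPRSS2-ERG fusion, by polyA RNA sequencing. Ver cells had spent 4 months in 1 µM enzalutamide, an antiandrogen drug, and Vc cells 4 months in ethanol. Steroids were then withdrawn from both, by 48 h or more in medium without phenol red whose serum had been stripped with charcoal. Each line was treated for 24 h with 1 nM of the androgen dihydrotestosterone (DHT) plus 1 µM enzalutamide, with 1 nM DHT alone or with 1 µM enzalutamide alone, or served as control, giving 8 groups of 2 libraries. Each line is a single long-term culture as far as the labels say, so differences between Ver and Vc are differences between these 2 cultures. The sample descriptions place all Ver libraries on lane L002 and all Vc libraries on lane L008, so line and lane cannot be told apart in levels compared between the lines. The labels do not say whether the 2 libraries of a group came from separate cultures, so the p-values measure the spread between these libraries, which may be technical.

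The 16 libraries held 8155244 to 13273523 counts in genes. All 9 luminal prostate markers checked were detected, with means from 52.4 CPM (the count per 1e6 counts of the library, with totals adjusted by the TMM method) for KLK3 to 3932 CPM for KLK2. Of 9 markers of fibroblasts and smooth muscle, 3 averaged 1 CPM or more (LUM, MYH11 and ACTA2). Over all 16 libraries LUM had 3938 counts, MYH11 684, ACTA2 264, PDGFRB 93 and THY1 59. DCN, PDGFRA, FAP and POSTN had 2 to 16 counts each. The summed level of this list moved with treatment and line, mostly through LUM, the gene of the matrix proteoglycan lumican. In Ver it was 23.4 to 33.0 CPM with DHT plus enzalutamide, 5.35 to 5.44 with DHT, 84.4 to 88.8 with enzalutamide and 58.7 to 64.1 in control cells. In Vc it was 9.60 to 10.1, 3.53 to 4.57, 23.5 to 24.9 and 19.7 to 21.0 CPM in the same order. The share of reads in no gene also moved with DHT, at 45.3 and 45.6% with DHT against 49 and 48.7% in control cells in Ver, and at 47.1 and 46.9% against 50.1 and 50.6% in Vc, and its part in the results below was not tested.

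Of the 54 genes, 38 were expressed, which here means a mean of at least 1 CPM in at least 1 of the 8 groups. Of the 42 collagen genes, 27 were expressed. The mean of the highest group reached 100 CPM for LAMA3, LAMA5, LAMB1, LAMC1, COL4A5 and COL6A1. It lay between 10 and 100 CPM for LAMB2 and LAMB4 and for 12 collagen genes (COL4A2, COL4A3, COL4A4, COL5A2, COL6A2, COL7A1, COL9A2, COL10A1, COL11A2, COL18A1, COL27A1 and COL28A1). It lay between 1 and 10 CPM for LAMA1, LAMA4, LAMB3 and LAMC3 and for 13 collagen genes (COL1A1, COL2A1, COL4A6, COL5A1, COL6A6, COL8A2, COL9A3, COL14A1, COL16A1, COL17A1, COL20A1, COL23A1 and COL26A1). The 16 genes under 1 CPM in every group were LAMA2, the alpha chain of muscle laminin, and COL1A2, COL3A1, COL4A1, COL5A3, COL6A3, COL6A5, COL8A1, COL9A1, COL12A1, COL13A1, COL19A1, COL21A1, COL22A1, COL24A1 and COL25A1. With a minimum of 1 RPKM instead, 24 genes counted as expressed. Among the unexpressed genes are a fibrillar collagen of soft tissue (COL3A1, 5 counts in all libraries together) and the partner chain of type I collagen (COL1A2, 1 count). COL11A1 and COL15A1, whose symbols also follow the pattern, are not in the table of normalized values and had 0 counts in all 16 count files, which allows up to 0.368 CPM in the library with the lowest total (3 counts, counting error only).

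Levels of different genes were compared per kilobase of exon (RPKM). The beta chain gene LAMB1 averaged 92.1 RPKM over the 16 libraries and the gamma chain gene LAMC1 36.7 RPKM, followed by the alpha chain genes LAMA3 with 16.8 and LAMA5 with 15.2 RPKM. The leading collagens were COL6A1 with 13.6 RPKM, a chain of the microfibrillar type VI, and COL4A5 with 8.86 RPKM, a chain of the basement membrane network. LAMB2 averaged 7.56, COL18A1 6.07, COL10A1 4.70 and COL9A2 4.41 RPKM. Laminin genes held 72.1 to 76.6% of the summed RPKM of all 54 genes in every group, and LAMB1, LAMC1, LAMA3 and LAMA5 together 67.6 to 71.4%. Some of these levels are uncertain because the counting ignored strand: COL18A1 shares 16.4% of its exon bases with SLC19A1 on the other strand, LAMB1 shares 3.57% and LAMA5 2.54% with neighbours, and COL10A1 lies inside NT5DC1.

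**Figure D1:**
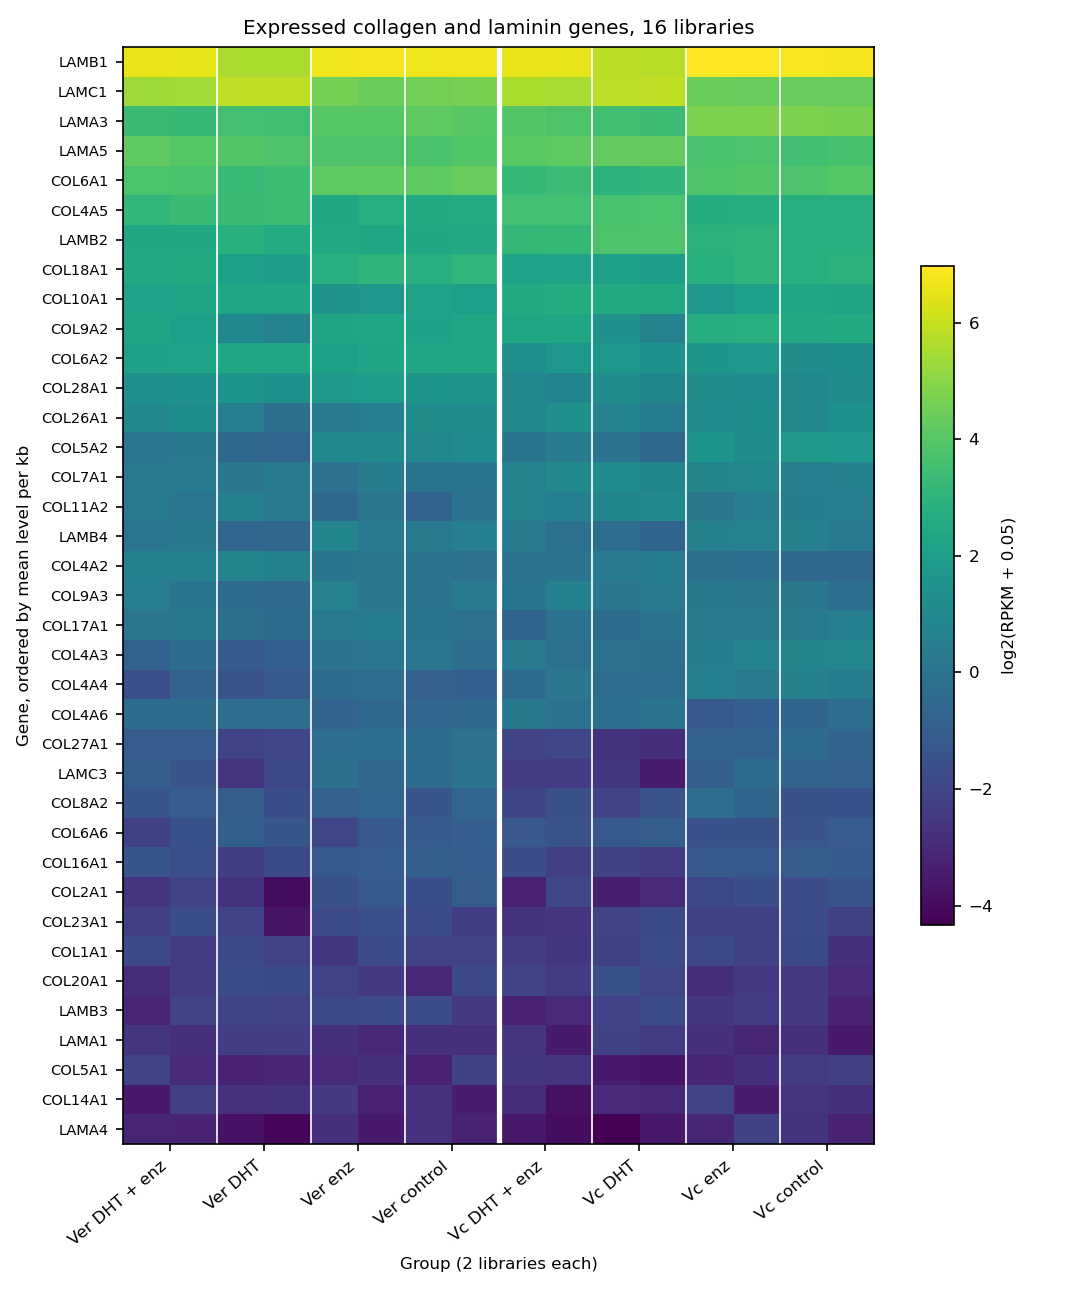
Level of 37 expressed genes in each of the 16 libraries, as log2(RPKM + 0.05), with genes in rows ordered by mean RPKM and libraries in columns by group, 2 per group; white lines separate groups and the thick white line separates Ver from Vc. LAMB1 and LAMC1 (means 92.1 and 36.7 RPKM) stand at the top; within a row, the DHT columns are darker for LAMB1 and brighter for LAMC1.

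The type IV collagen genes lie head to head in pairs, and their promoters are shown because the windows of a pair overlap while the levels of its members may or may not be alike. COL4A1 and COL4A2, the most widespread chains of basement membranes, start 127 bases apart on opposite strands of chromosome 13 in RefSeq (GRCh38.p14), and their promoter windows of 250 bases before to 50 bases after the start share 226 bases. COL4A2 had 12.5 to 32.9 CPM, yet COL4A1 had 4 counts in 3 of the 16 libraries. COL4A3 and COL4A4 start 419 bases apart on chromosome 2, with 82 bases shared by their windows, and both were counted in every library, with group means of the ratio of COL4A3 to COL4A4 per kilobase from 1.11 to 1.87. COL4A6 has further RefSeq starts, and only the start whose window overlaps that of COL4A5 was used here. It lies 380 bases from the start of COL4A5 on the X chromosome, and the windows share 121 bases. COL4A5 was 9.52 to 15.1 times as high as COL4A6 per kilobase in group means. The windows of LAMB1 and LAMC1, the laminin genes with the highest levels, are given beside them. Capitals mark GC boxes (CCGCCC or GGGCGG) and, in COL4A6, the AGAACA hexamer of the androgen response element, and each window is written 5′ to 3′ on the strand of its gene: COL4A1 chr13:110307108-110307407 (minus), COL4A2 chr13:110307034-110307333 (plus), COL4A3 chr2:227164374-227164673 (plus), COL4A4 chr2:227164156-227164455 (minus), COL4A5 chrX:108439588-108439887 (plus), COL4A6 chrX:108439409-108439708 (minus), LAMB1 chr7:108003112-108003411 (minus) and LAMC1 chr1:183023170-183023469 (plus).
COL4A1: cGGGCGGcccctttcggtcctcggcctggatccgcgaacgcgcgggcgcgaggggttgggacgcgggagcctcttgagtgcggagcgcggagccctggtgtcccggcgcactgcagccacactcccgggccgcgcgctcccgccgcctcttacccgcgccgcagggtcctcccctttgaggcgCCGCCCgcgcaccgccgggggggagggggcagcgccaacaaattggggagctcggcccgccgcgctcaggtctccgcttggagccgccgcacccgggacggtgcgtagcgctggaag
COL4A2: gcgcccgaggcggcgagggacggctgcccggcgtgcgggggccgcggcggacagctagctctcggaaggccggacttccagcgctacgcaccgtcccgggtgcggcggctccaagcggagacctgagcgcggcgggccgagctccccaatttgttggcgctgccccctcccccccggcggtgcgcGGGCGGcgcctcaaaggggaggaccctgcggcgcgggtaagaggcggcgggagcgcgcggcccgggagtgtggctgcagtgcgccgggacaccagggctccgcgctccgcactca
COL4A3: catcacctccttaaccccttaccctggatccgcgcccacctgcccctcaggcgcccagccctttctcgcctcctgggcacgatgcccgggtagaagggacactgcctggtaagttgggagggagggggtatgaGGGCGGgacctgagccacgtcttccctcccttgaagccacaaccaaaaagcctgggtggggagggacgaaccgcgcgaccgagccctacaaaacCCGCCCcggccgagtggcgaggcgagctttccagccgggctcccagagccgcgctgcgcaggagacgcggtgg
COL4A4: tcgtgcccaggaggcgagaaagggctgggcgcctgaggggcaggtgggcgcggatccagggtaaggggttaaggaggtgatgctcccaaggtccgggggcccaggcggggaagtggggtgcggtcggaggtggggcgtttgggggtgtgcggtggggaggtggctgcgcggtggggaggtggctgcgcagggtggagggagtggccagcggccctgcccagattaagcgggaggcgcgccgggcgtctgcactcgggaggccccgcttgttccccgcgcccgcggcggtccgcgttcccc
COL4A5: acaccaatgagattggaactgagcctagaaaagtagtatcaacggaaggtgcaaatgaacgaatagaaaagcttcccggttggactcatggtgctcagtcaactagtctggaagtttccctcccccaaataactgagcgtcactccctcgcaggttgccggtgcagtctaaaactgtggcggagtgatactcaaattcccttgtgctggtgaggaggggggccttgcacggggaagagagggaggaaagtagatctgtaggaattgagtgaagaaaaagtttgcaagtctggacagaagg
COL4A6: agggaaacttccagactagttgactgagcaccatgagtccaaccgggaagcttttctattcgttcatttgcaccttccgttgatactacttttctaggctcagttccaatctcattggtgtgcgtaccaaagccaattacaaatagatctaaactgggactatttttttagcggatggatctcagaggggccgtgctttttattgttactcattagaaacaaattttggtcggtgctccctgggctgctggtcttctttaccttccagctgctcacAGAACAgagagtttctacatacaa
LAMB1: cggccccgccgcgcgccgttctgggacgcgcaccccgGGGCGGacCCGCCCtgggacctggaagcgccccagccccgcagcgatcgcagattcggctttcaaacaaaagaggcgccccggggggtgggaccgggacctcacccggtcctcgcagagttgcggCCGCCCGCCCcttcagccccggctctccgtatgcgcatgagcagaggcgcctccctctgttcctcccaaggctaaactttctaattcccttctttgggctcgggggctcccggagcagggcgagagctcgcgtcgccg
LAMC1: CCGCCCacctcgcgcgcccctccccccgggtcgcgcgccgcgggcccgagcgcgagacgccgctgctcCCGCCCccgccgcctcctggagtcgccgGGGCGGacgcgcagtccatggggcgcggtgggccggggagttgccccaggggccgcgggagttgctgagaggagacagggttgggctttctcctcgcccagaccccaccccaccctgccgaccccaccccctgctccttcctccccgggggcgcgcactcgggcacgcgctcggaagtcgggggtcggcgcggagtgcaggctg
The LAMC1 window holds 3 GC boxes, the LAMB1 window 4 (of which a pair overlaps), COL4A3 2, COL4A1 2 and COL4A2 1. The windows shown for COL4A4, COL4A5 and COL4A6 hold 0, but a GC box was found in a COL4A6 window not shown. RefSeq windows were matched for 39 of the 54 genes, some with several starts (53 windows). A GC box on either strand was found in 30 of the 53 windows (56.6%), against 45% of all 35116 windows, and in at least 1 window of 25 of the 39 genes (64.1%), against 48.3% of all 27305 genes. The hexamer of the androgen response element (AGAACA or TGTTCT) was found in 7 of the 53 windows (13.2%), of the 5 genes COL4A6, COL5A1, COL9A1, COL28A1 and LAMB3, against 14.8% of all windows. The full palindromic element (AGAACA, any 3 bases, TGTTCT) was found in 0 of the 53, against 1 of all windows. A TATA box (TATAAA or TTTATA) was found in 8 of the 53 (15.1%), against 11.5% of all windows. These are matches of letters in short windows and say nothing about binding.

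The first comparison asks how these genes responded to the androgen. In Ver, 19 of the 38 genes tested were called (5 higher, 14 lower with DHT), where 44.1% of all 22553 genes tested were called (21.2% higher, 22.9% lower). In Vc, 27 of 38 were called (10 higher, 17 lower), where 44.3% of all genes were (21.8% higher, 22.5% lower). The 5 higher calls in Ver became 3 without Ver control library 1, and the 10 in Vc became 6 without Vc control library 2, 5 without Vc DHT library 1 and 6 by DESeq2. Calls rest on edgeR's quasi-likelihood test with a threshold of 0.05 on the p-value after Benjamini-Hochberg adjustment over the 22553 genes, and changes are log2 fold changes ± SE. The median log2 change of the 38 genes was -0.30 in Ver and -0.15 in Vc, against -0.041 and -0.036 over all genes. The lines share no library in these comparisons. LAMC1, LAMB2, COL4A2, COL4A5 and COL11A2 rose in both lines, which is 100% of the Ver and 50% of the Vc list of higher genes, against 82.0% and 79.6% over all genes tested. LAMA3, LAMA4, LAMB1, LAMB4, LAMC3, COL2A1, COL4A3, COL5A2, COL6A1, COL9A2, COL16A1, COL18A1, COL26A1 and COL27A1 fell in both, which is 100% of the Ver and 82.4% of the Vc list of lower genes, against 74.1% and 75.4% over all genes tested. None of the 38 was called in opposite directions, against 26 of all genes tested.

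**Figure D2:**
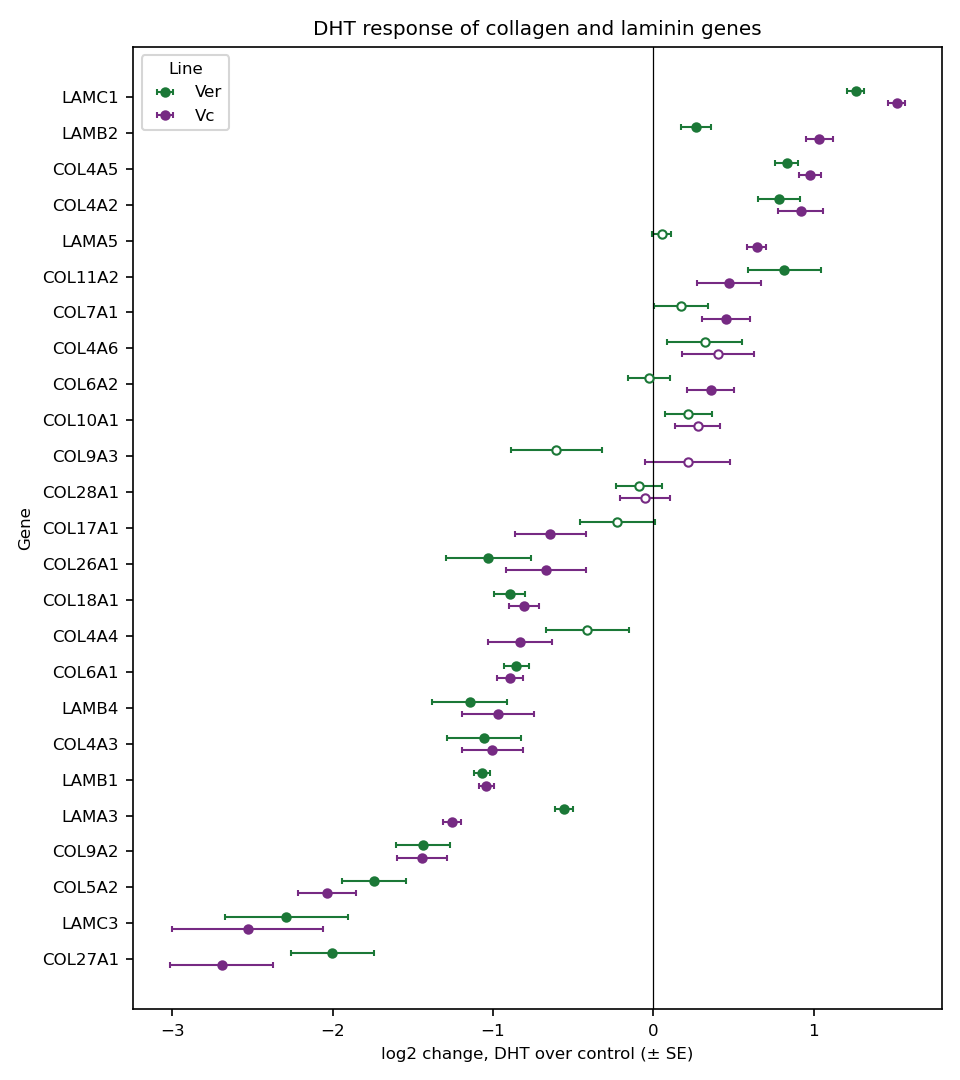
Log2 change with DHT over control cells (x axis, point and SE) of the genes with a mean of at least 5 CPM in a group compared, in Ver (green, upper of each pair) and Vc (purple, lower); filled points were called and open points were not. LAMC1 lies farthest right, at 1.26 in Ver and 1.52 in Vc, and COL27A1 farthest left in Vc, at -2.69.

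Among laminins, the gamma chain rose and the leading beta chain fell. LAMC1 (chr1:183023460-183145592, GRCh38, plus strand) encodes the gamma chain found in most laminins. In Ver, LAMC1 had 344 and 354 CPM with DHT plus enzalutamide, 498 and 489 with DHT, 203 and 183 with enzalutamide and 198 and 213 in control cells. In Vc, LAMC1 had 398 and 383 CPM with DHT plus enzalutamide, 484 and 496 with DHT, 182 and 169.7 with enzalutamide and 170.3 and 172 in control cells. Every DHT library lay above every other library of its line, and the groups with DHT plus enzalutamide lay between DHT and control cells. With DHT it rose 2.40-fold in Ver (log2 1.26 ± 0.053, adjusted p = 1.74e-49) and 2.87-fold in Vc (1.52 ± 0.053, adjusted p = 1.62e-58). The beta chain LAMB1 (chr7:107923799-108003255, minus strand) is the usual partner of LAMC1. In Ver, LAMB1 had 788 and 761.6 CPM with DHT plus enzalutamide, 393 and 390.0 with DHT, 862 and 885 with enzalutamide and 821 and 822 in control cells. In Vc, LAMB1 had 781 and 749 CPM with DHT plus enzalutamide, 455 and 441 with DHT, 986 and 1015 with enzalutamide and 932 and 913 in control cells. The DHT libraries were the lowest in both lines, with no overlap with any other group. The fall to 0.477 of control in Ver (log2 -1.07 ± 0.048, adjusted p = 7.93e-47) and to 0.486 in Vc (-1.04 ± 0.047, adjusted p = 5.55e-46) had nearly the same size in both lines.

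Per kilobase, LAMB1 was slightly below LAMC1 with DHT alone, above it with DHT plus enzalutamide and several times above it without DHT. The ratio of LAMB1 to LAMC1 per kilobase in Ver was 2.37 and 2.22 with DHT plus enzalutamide, 0.816 and 0.824 with DHT, 4.40 and 5.0 with enzalutamide and 4.27 and 3.99 in control cells. In Vc the ratio was 2.03 and 2.02, 0.972 and 0.919, 5.61 and 6.18 and 5.65 and 5.49 in the same order.

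LAMB2 encodes the beta chain known from the neuromuscular junction and the kidney filter. In Ver, LAMB2 had 36.5 and 35.8 CPM with DHT plus enzalutamide, 48.9 and 42.3 with DHT, 37.6 and 34.4 with enzalutamide and 37.4 and 38.3 in control cells. In Vc, LAMB2 had 61.8 and 64.5 CPM with DHT plus enzalutamide, 96.0 and 95.9 with DHT, 51.9 and 55.9 with enzalutamide and 47.0 and 46.6 in control cells. In Vc the DHT libraries stood apart from all others, while in Ver they lay only a few CPM above the rest. The rise was 1.20-fold in Ver (log2 0.27 ± 0.094, adjusted p = 0.0133) and 2.05-fold in Vc (1.04 ± 0.085, adjusted p = 9.44e-23). The Ver call ended without Ver control library 1 (0.0632) or Ver DHT library 1 (0.29), where the value in parentheses is the adjusted p. LAMB4, a further beta chain gene next to LAMB1 on chromosome 7, had 4.19 and 4.24 CPM with DHT against 8.63 and 10.0 in control cells in Ver and 5.50 and 4.06 CPM with DHT against 10.1 and 8.84 in control cells in Vc. It fell in Ver (-1.14 ± 0.23, adjusted p = 9.11e-06) and Vc (-0.97 ± 0.22, adjusted p = 9.40e-05).

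The alpha chain genes differed from one another. LAMA3 encodes the alpha chain of the laminin that anchors epithelial cells at hemidesmosomes. In Ver, LAMA3 had 152 and 139 CPM with DHT plus enzalutamide, 174 and 165 with DHT, 239 and 242 with enzalutamide and 259.9 and 240.0 in control cells. In Vc, LAMA3 had 222 and 206 CPM with DHT plus enzalutamide, 169 and 155 with DHT, 391 and 407 with enzalutamide and 392 and 384 in control cells. Libraries without DHT were the highest in both lines, and the drop was steeper in Vc. LAMA3 fell to 0.679 of control in Ver (log2 -0.56 ± 0.056, adjusted p = 6.30e-17) and to 0.418 in Vc (-1.26 ± 0.055, adjusted p = 1.29e-47). LAMB3, the beta chain gene of that laminin, averaged at most 1.11 CPM in any group and was not called in either line.

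LAMA5 encodes the alpha chain of mature epithelial and vascular basement membranes. In Ver, LAMA5 had 260.3 and 223 CPM with DHT plus enzalutamide, 217 and 201 with DHT, 199 and 198 with enzalutamide and 190.4 and 213 in control cells. In Vc, LAMA5 had 239.9 and 257 CPM with DHT plus enzalutamide, 271 and 275 with DHT, 191 and 199 with enzalutamide and 164 and 185 in control cells. In Vc both DHT libraries lay above both control libraries by more than their spread, and in Ver the 2 groups overlapped. It rose 1.56-fold in Vc (0.65 ± 0.058, adjusted p = 8.57e-19), and in Ver its log2 change was 0.052 ± 0.059 (95% interval -0.063 to 0.17, adjusted p = 0.512). LAMC3, a gamma chain gene of low level, fell. It had 0.892 and 1.66 CPM with DHT against 5.43 and 7.07 in control cells in Ver (-2.29 ± 0.38, adjusted p = 1.90e-08) and 0.985 and 0.305 CPM with DHT against 4.16 and 3.74 in control cells in Vc (-2.53 ± 0.47, adjusted p = 8.83e-08). LAMA1 and LAMA4 stayed under 3 CPM in every library. LAMA1 was called higher in Vc (1.24 ± 0.47, adjusted p = 0.0212), but not without Vc control library 2 (0.311) or Vc DHT library 1 (0.133). LAMA4 was called lower in Ver (-2.23 ± 1.03, adjusted p = 0.0411) and Vc (-2.31 ± 1.01, adjusted p = 0.029), but not in Ver without Ver control library 1 (0.259), Ver DHT library 1 (0.0594) or Ver DHT library 2 (0.237), and not in Vc without Vc control library 1 (0.222) or Vc DHT library 1 (0.382).

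**Figure D3:**
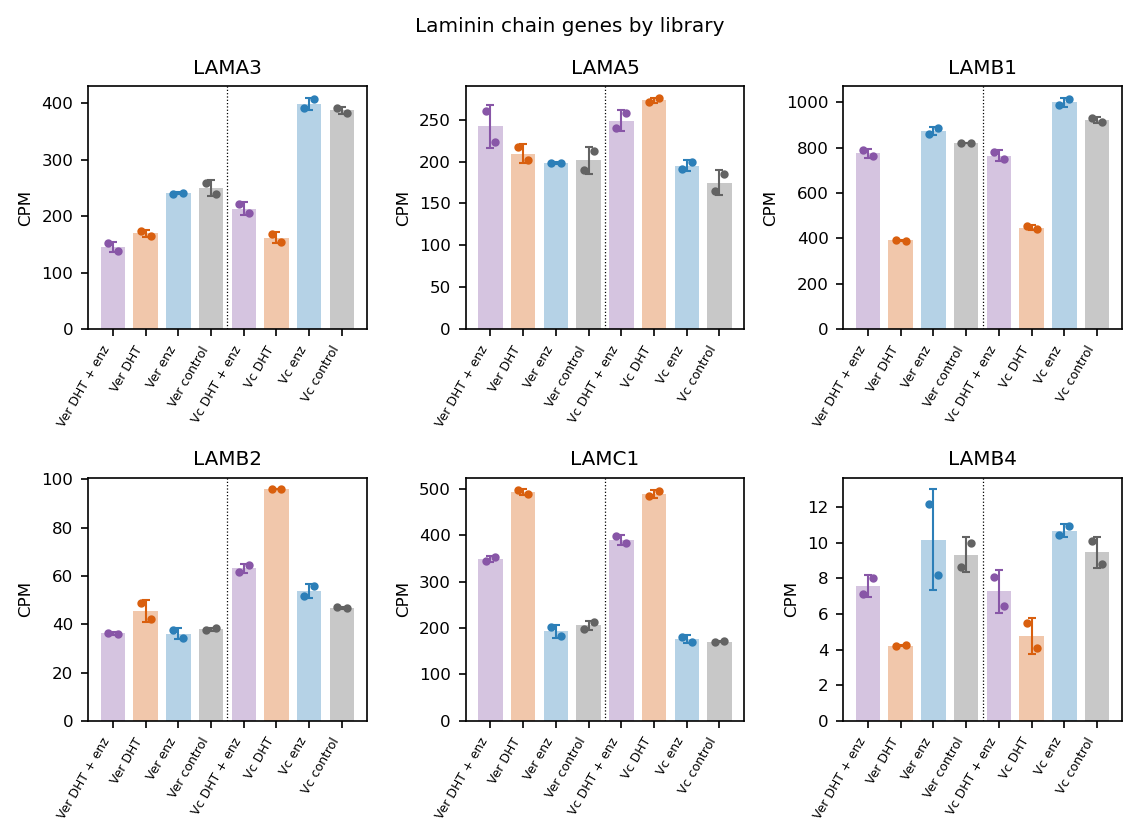
TMM-scaled CPM (y axis, from 0) of 6 laminin genes in the 8 groups (x axis); points are the 2 libraries of a group, bars their mean and error bars the SD, with Ver left and Vc right of the dotted line. LAMC1 and LAMB2 are highest with DHT and LAMB1 lowest; LAMB2 reaches 95.9 and 96.0 CPM with DHT in Vc against 48.9 and 42.3 CPM in Ver.

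The type IV chains split into rising and falling genes with DHT. COL4A5 encodes a chain shared by the kidney filter network and, with COL4A6, by epithelial and smooth muscle basement membranes. In Ver, COL4A5 had 105 and 121 CPM with DHT plus enzalutamide, 123 and 128 with DHT, 64.9 and 78.2 with enzalutamide and 69.4 and 71.6 in control cells. In Vc, COL4A5 had 144 and 143 CPM with DHT plus enzalutamide, 158 and 162 with DHT, 74.8 and 76.3 with enzalutamide and 82.0 and 80.8 in control cells. Both groups with DHT were separated from both groups without it in each line. It rose 1.78-fold in Ver (log2 0.83 ± 0.07, adjusted p = 7.06e-22) and 1.97-fold in Vc (0.98 ± 0.067, adjusted p = 1.02e-28). COL4A6, its neighbour on the X chromosome, had 7.13 and 7.38 CPM with DHT against 5.53 and 6.08 in control cells in Ver and 7.64 and 9.04 CPM with DHT against 5.31 and 7.31 in control cells in Vc and was not called (adjusted p = 0.282 and 0.142). COL4A2 had 32.9 and 28.9 CPM with DHT against 18.4 and 17.4 in control cells in Ver and 22.7 and 25.3 CPM with DHT against 12.8 and 12.5 in control cells in Vc, again with no overlap. Its rise was 1.72-fold in Ver (0.79 ± 0.13, adjusted p = 1.30e-07) and 1.89-fold in Vc (0.92 ± 0.14, adjusted p = 4.52e-09).

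COL4A3 and COL4A4, which share a promoter region and together with COL4A5 build the kidney filter network, were lower with DHT. In Ver, COL4A3 had 4.71 and 6.74 CPM with DHT plus enzalutamide, 3.66 and 4.34 with DHT, 8.63 and 9.35 with enzalutamide and 9.31 and 7.33 in control cells. In Vc, COL4A3 had 10.5 and 8.19 CPM with DHT plus enzalutamide, 8.29 and 7.62 with DHT, 12.2 and 14.6 with enzalutamide and 15.6 and 16.5 in control cells. The DHT libraries lay below the control libraries in both lines. COL4A3 fell in Ver (-1.05 ± 0.23, adjusted p = 3.57e-05) and Vc (-1.004 ± 0.19, adjusted p = 1.73e-06). COL4A4 had 7.72 and 8.13 CPM with DHT against 14.7 and 13.4 in control cells in Vc, where it fell (-0.83 ± 0.20, adjusted p = 0.000198). In Ver it had 3.39 and 3.97 CPM with DHT against 5.04 and 4.74 in control cells (-0.41 ± 0.26, adjusted p = 0.202), with no call.

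**Figure D4:**
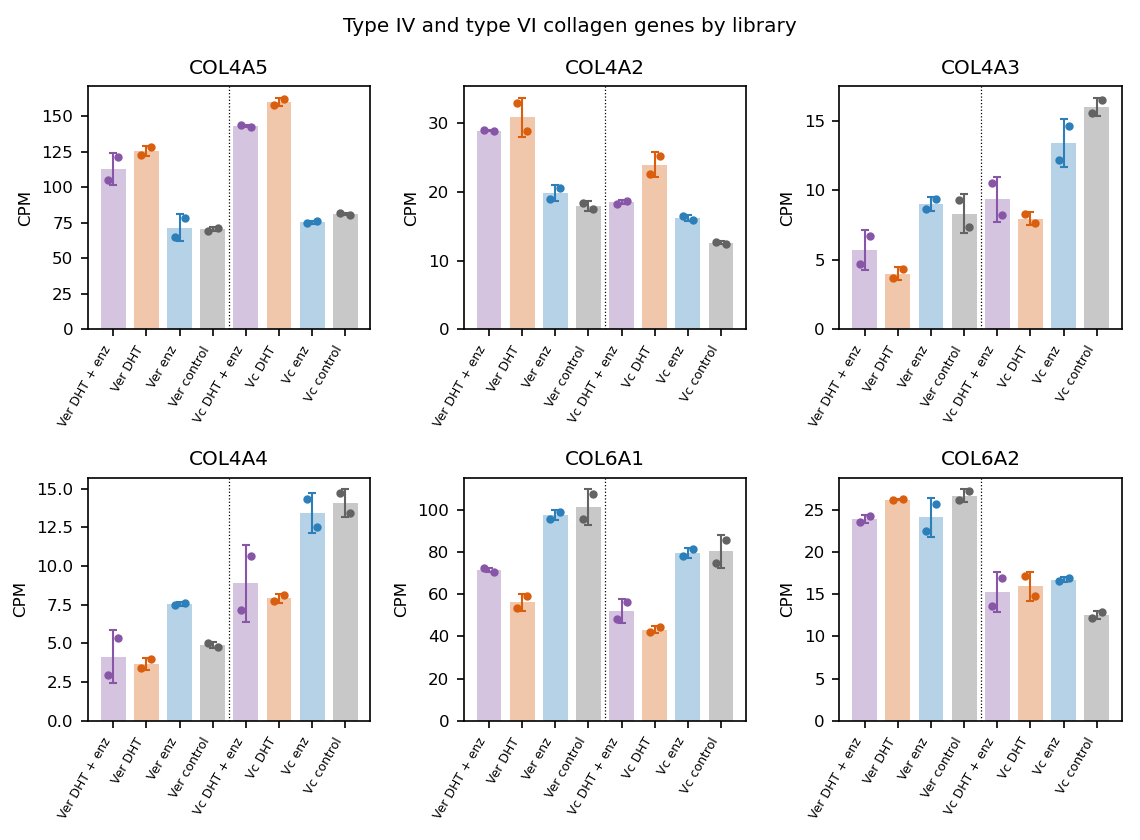
TMM-scaled CPM (y axis, from 0) of 4 type IV and 2 type VI collagen genes in the 8 groups (x axis); points are the 2 libraries of a group, bars their mean and error bars the SD, with Ver left and Vc right of the dotted line. COL4A5 and COL4A2 are higher with DHT (COL4A5 123 and 128 CPM in Ver with DHT), COL4A3 and COL6A1 lower, and COL6A2 is higher in Ver than in Vc in every treatment.

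Of the type VI chains, COL6A1 fell and COL6A2, its neighbour on chromosome 21 and partner in the same trimer, was not called lower. In Ver, COL6A1 had 72.3 and 70.7 CPM with DHT plus enzalutamide, 53.4 and 59.0 with DHT, 95.9 and 99.2 with enzalutamide and 95.5 and 107 in control cells. In Vc, COL6A1 had 48.2 and 56.1 CPM with DHT plus enzalutamide, 42.0 and 44.5 with DHT, 78.1 and 81.4 with enzalutamide and 74.9 and 85.7 in control cells. Both groups with DHT were below both groups without it. COL6A1 fell to 0.553 of control in Ver (log2 -0.85 ± 0.079, adjusted p = 2.37e-19) and 0.538 in Vc (-0.89 ± 0.082, adjusted p = 1.39e-19). COL6A2 had 26.1 and 26.2 CPM with DHT against 26.1 and 27.2 in control cells in Ver, with no call (-0.026 ± 0.13, 95% interval -0.28 to 0.23). In Vc it had 17.2 and 14.7 CPM with DHT against 12.2 and 12.8 in control cells and was called higher (0.36 ± 0.15, adjusted p = 0.0397), but not without Vc control library 1 (0.172), Vc control library 2 (0.0727) or Vc DHT library 1 (0.356). COL6A3, the third chain of the common trimer, had at most 0.632 CPM in any group mean, and COL6A6 was not called.

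Of the 6 tested fibrillar chain genes, 3 fell in Ver and 4 in Vc, COL11A2 rose in both and COL1A1 was called in neither, where 22.9% of all genes fell in Ver and 22.5% in Vc. COL5A2, a type V chain that takes part in starting fibrils, had 4.82 and 4.34 CPM with DHT against 14.2 and 16.5 in control cells in Ver (-1.74 ± 0.20, adjusted p = 1.72e-14) and 6.98 and 4.67 CPM with DHT against 24.6 and 23.9 in control cells in Vc (-2.04 ± 0.18, adjusted p = 4.93e-21). COL27A1, a fibrillar chain of cartilage, had 2.76 and 2.95 CPM with DHT against 10.6 and 12.3 in control cells in Ver (-2.00 ± 0.26, adjusted p = 2.74e-12) and 1.48 and 1.22 CPM with DHT against 10.0 and 7.65 in control cells in Vc (-2.69 ± 0.32, adjusted p = 1.88e-15), the largest fall among genes with at least 5 CPM. No DHT library of either gene reached the control libraries of its line. COL2A1, the main cartilage collagen, fell in Ver (-2.56 ± 0.65, adjusted p = 0.000117) and Vc (-2.24 ± 0.65, adjusted p = 0.000904), with group means of at most 2.44 CPM. COL5A1, also a low gene, fell in Vc (-2.23 ± 0.71, adjusted p = 0.00255) and was not called in Ver (adjusted p = 0.207). COL11A2, a chain of cartilage fibrils, went the other way. It had 9.72 and 7.94 CPM with DHT against 3.69 and 6.26 in control cells in Ver (0.82 ± 0.23, adjusted p = 0.00145) and 11.9 and 13.4 CPM with DHT against 8.85 and 9.35 in control cells in Vc (0.47 ± 0.20, adjusted p = 0.0414). Its Ver call ended without Ver control library 1 (0.133), and its Vc call without Vc control library 1 (0.165), Vc control library 2 (0.0857), Vc DHT library 1 (0.0584) or Vc DHT library 2 (0.217).

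The remaining collagens called in both lines were COL9A2, COL18A1, COL16A1 and COL26A1. COL9A2, a type IX chain on cartilage fibrils, gave nearly the same change in both lines. In Ver, COL9A2 had 20.0 and 17.4 CPM with DHT plus enzalutamide, 7.94 and 6.74 with DHT, 20.1 and 21.3 with enzalutamide and 18.4 and 21.3 in control cells. In Vc, COL9A2 had 21.6 and 21.0 CPM with DHT plus enzalutamide, 10.9 and 6.61 with DHT, 27.4 and 28.7 with enzalutamide and 23.6 and 24.8 in control cells. The DHT libraries were the lowest in each line, and the libraries with both compounds lay far above them. It fell to 0.370 of control in Ver (log2 -1.44 ± 0.17, adjusted p = 6.57e-14) and 0.368 in Vc (-1.44 ± 0.16, adjusted p = 2.06e-15). COL18A1, the source of the angiogenesis inhibitor endostatin, had 36.4 and 34.0 CPM with DHT against 57.3 and 73.3 in control cells in Ver (-0.90 ± 0.10, adjusted p = 1.26e-15) and 36.0 and 34.1 CPM with DHT against 58.9 and 64.2 in control cells in Vc (-0.81 ± 0.095, adjusted p = 1.64e-13). COL16A1, which also associates with fibrils, fell in Ver (-1.18 ± 0.36, adjusted p = 0.00325), though not without Ver DHT library 1 (0.0819), and in Vc (-1.37 ± 0.37, adjusted p = 0.00077). COL26A1 fell in Ver (-1.03 ± 0.27, adjusted p = 0.000536), though not without Ver DHT library 2 (0.0559), and in Vc (-0.67 ± 0.25, adjusted p = 0.0208), though not without Vc control library 2 (0.256) or Vc DHT library 2 (0.165).

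3 further genes were called in Vc and not in Ver. COL17A1, the transmembrane collagen of hemidesmosomes, had 5.34 and 6.71 CPM with DHT against 8.70 and 10.0 in control cells in Vc (log2 -0.64 ± 0.22, adjusted p = 0.011), a call that ended without Vc control library 2 (0.115) or Vc DHT library 1 (0.184). COL7A1, the anchoring fibril collagen, had 23.5 and 19.7 CPM with DHT against 15.2 and 16.4 in control cells in Vc (0.46 ± 0.15, adjusted p = 0.00716), a call that ended without Vc control library 1 (0.0733) or Vc DHT library 1 (0.189). COL20A1 was called higher in Vc (1.27 ± 0.46, adjusted p = 0.0135), a gene with means of at most 2.81 CPM, but not without Vc control library 2 (0.163) or Vc DHT library 1 (0.169). For none of these 3 did the DHT change differ between the lines by the test of the difference. Genes called in neither line included COL1A1, COL4A6, COL6A6, COL8A2, COL9A3, COL10A1, COL14A1, COL23A1, COL28A1 and LAMB3. COL10A1, known from hypertrophic cartilage, was the most abundant of these per kilobase and had 19.5 and 18.7 CPM with DHT against 17.2 and 15.7 in control cells in Ver and 22.8 and 22.3 CPM with DHT against 18.9 and 18.4 in control cells in Vc.

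Enzalutamide alone, against control cells, moved none of the 38 genes past the threshold in edgeR in either line. The share of all genes called was 1.13% in Ver and 0.537% in Vc. At an unadjusted p under 0.05 there were 3 genes in Ver and 9 in Vc, a threshold at which the share over all genes was not taken. DESeq2 called 0 in Ver and 1 in Vc, LAMB1 (log2 0.11, adjusted p = 0.0455), for which edgeR gave 0.12 ± 0.047, adjusted p = 0.378. LAMC1, the gene with the largest called rise with DHT in both lines, had a log2 change with enzalutamide alone of -0.10 ± 0.055 in Ver and 0.039 ± 0.055 in Vc. Its 95% intervals were -0.20 to 0.013 in Ver and -0.069 to 0.15 in Vc, so a change of the size seen with DHT lies outside both.

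Adding enzalutamide to DHT tested how far the drug opposed the hormone. Against DHT alone, 14 of 38 genes were called in Ver (11 higher, 3 lower), where 26.9% of all genes were (13.7% higher, 13.2% lower). In Vc 11 of 38 were called (8 higher, 3 lower), where 22.4% of all genes were (11.5% higher, 11% lower). With size factors of the DESeq2 type the split in Vc was 6 higher and 5 lower, with LAMB4 and COL5A2 no longer called and LAMA5 and COL4A5 called lower. The Vc count was 7 by DESeq2 and with no filter on low counts. It was 6 without Vc DHT plus enzalutamide library 2 and 6 without Vc DHT library 2. In Ver the 3 lower became 1 without Ver DHT library 1. These comparisons share the DHT libraries with the comparisons of DHT against control, so the values are set side by side only.

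Genes of the 2 leading laminin chains moved back by different amounts. LAMB1 was 1.98-fold higher with DHT plus enzalutamide than with DHT in Ver (log2 0.98 ± 0.048, adjusted p = 4.48e-42) and 1.71-fold higher in Vc (0.77 ± 0.047, adjusted p = 7.95e-32). On the scale of group means in CPM, this was 89.2% of the change made by DHT in Ver and 66.8% in Vc. LAMC1 was lower with both compounds than with DHT in Ver (-0.50 ± 0.052, adjusted p = 1.81e-15) and Vc (-0.33 ± 0.052, adjusted p = 7.07e-08), which was 50.2% and 31.1% of its DHT change. LAMB2 was lower in Ver (-0.33 ± 0.10, adjusted p = 0.00367), though not without Ver DHT library 1 (0.176), and in Vc (-0.60 ± 0.083, adjusted p = 5.76e-10), where 66.7% of its DHT change was removed.

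LAMA3 moved in opposite directions in the lines. In Ver it was lower with both compounds than with DHT (-0.22 ± 0.058, adjusted p = 0.00157), below any other group of the line, although that call ended without Ver DHT plus enzalutamide library 2 (0.11) or Ver DHT library 1 (0.0509). In Vc it was higher with both than with DHT (0.40 ± 0.056, adjusted p = 2.17e-09). LAMA5 was higher with both compounds than with DHT in Ver (0.21 ± 0.059, adjusted p = 0.00328), though not without Ver DHT plus enzalutamide library 1 (0.414) or Ver DHT library 2 (0.102), and in Vc its log2 change was -0.14 ± 0.057 (adjusted p = 0.0783). LAMB4 was higher in Ver (0.84 ± 0.24, adjusted p = 0.00369), though not without Ver DHT plus enzalutamide library 2 (0.0503), and in Vc (0.59 ± 0.23, adjusted p = 0.0493), though not without Vc DHT plus enzalutamide library 1 (0.403) or Vc DHT library 2 (0.389). LAMC3 was higher in Ver (1.25 ± 0.41, adjusted p = 0.0106), though not without Ver DHT plus enzalutamide library 1 (0.14) or Ver DHT library 1 (0.202).

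Among collagens, COL9A2 came back nearly to control: it was 2.54-fold higher with both compounds than with DHT in Ver (log2 1.35 ± 0.17, adjusted p = 9.07e-12) and 2.39-fold higher in Vc (1.26 ± 0.16, adjusted p = 1.48e-11), 90.6% and 81.0% of the DHT change. COL6A1 was higher in Ver (0.35 ± 0.082, adjusted p = 0.000272) and in Vc (0.27 ± 0.085, adjusted p = 0.0112), the Vc call ending without Vc DHT plus enzalutamide library 2 (0.351) or Vc DHT library 1 (0.163). COL27A1 was higher in Ver (1.04 ± 0.28, adjusted p = 0.0014) and in Vc (1.09 ± 0.35, adjusted p = 0.0106), the Vc call ending without Vc DHT plus enzalutamide library 2 (0.0614) or Vc DHT library 2 (0.101). COL5A2 was higher in Ver (0.83 ± 0.22, adjusted p = 0.00121) and in Vc (0.52 ± 0.20, adjusted p = 0.0462), the Vc call ending without Vc DHT plus enzalutamide library 2 (0.444) or Vc DHT library 2 (0.518). COL18A1 was higher in Ver (0.46 ± 0.10, adjusted p = 6.98e-05) and had a log2 change of 0.16 ± 0.10 in Vc with no call.

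4 collagens were called in 1 line by calls that depended on single libraries. COL26A1 was higher in Ver (0.99 ± 0.27, adjusted p = 0.00199), though not without Ver DHT library 2 (0.115). COL9A3 was higher in Ver (0.74 ± 0.28, adjusted p = 0.0381), though not without Ver DHT plus enzalutamide library 1 (0.401), Ver DHT library 1 (0.119) or Ver DHT library 2 (0.137). In Vc, COL4A2 was lower (-0.37 ± 0.13, adjusted p = 0.0303), though not without Vc DHT plus enzalutamide library 1 (0.148), Vc DHT plus enzalutamide library 2 (0.103) or Vc DHT library 2 (0.259). COL5A1 was higher in Vc (1.81 ± 0.72, adjusted p = 0.039), though not without Vc DHT plus enzalutamide library 1 (0.143), Vc DHT plus enzalutamide library 2 (0.0843), Vc DHT library 1 (0.122) or Vc DHT library 2 (0.185). The share of the DHT change removed was taken over the genes called with DHT that reached 5 CPM. It ran from -29.9% (LAMA3) to 122% (LAMB2) in Ver with a median of 37.7% (16 genes). In Vc it ran from -20.0% (COL17A1) to 94.0% (COL26A1) with a median of 24.5% (20 genes). Neither COL17A1 nor COL26A1 was called for this drug effect in Vc. The medians rest on different genes in the lines, and the DHT libraries enter both parts of each share. COL4A5 kept most of its rise, with 22.6% removed in Ver and 21.5% in Vc, and was not called in either.

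Ver and Vc were then compared under each treatment, in 4 comparisons that share no library. With DHT plus enzalutamide 15 of 38 genes were called (7 higher, 8 lower in Ver), where 20.3% of all genes were (9.28% higher, 11% lower). With DHT 12 were called (5 higher, 7 lower), where 17.3% of all genes were (7.9% higher, 9.37% lower). With enzalutamide 12 were called (4 higher, 8 lower), where 16.6% of all genes were (7.88% higher, 8.69% lower). In control cells 15 were called (6 higher, 9 lower), where 18.9% of all genes were (9.13% higher, 9.73% lower). The count fell to 8 without Ver DHT plus enzalutamide library 1, to 7 without Ver enzalutamide library 1, and in control cells to 9 without Ver control library 1 or Vc control library 1. By direction, the 8 lower with DHT plus enzalutamide became 3 without Ver DHT plus enzalutamide library 1, 5 without Vc DHT plus enzalutamide library 1 and 5 by DESeq2. The 5 higher with DHT became 2 without Ver DHT library 1 and 3 without either Vc DHT library or by DESeq2. The 8 lower with enzalutamide became 4 without Ver enzalutamide library 1 and 5 by DESeq2. In control cells the 9 lower became 5 without Ver control library 1 and the 6 higher became 3 without Vc control library 1. COL6A1, COL6A2 and COL28A1 were higher in Ver under all 4 treatments, and LAMB2, COL4A3, COL4A4 and COL7A1 lower under all 4. COL4A2 and COL27A1 were higher under 3, and LAMA3, LAMB1 and COL4A5 lower under 3. The share of all tested genes called in the same direction under 3 or 4 treatments was not taken. Whether these genes recur more often than others is therefore not known. The summed level of the fibroblast and smooth muscle list given above was higher in Ver than in Vc in every treatment. All its genes but LUM, MYH11 and ACTA2 averaged under 1 CPM over the libraries.

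**Figure D5:**
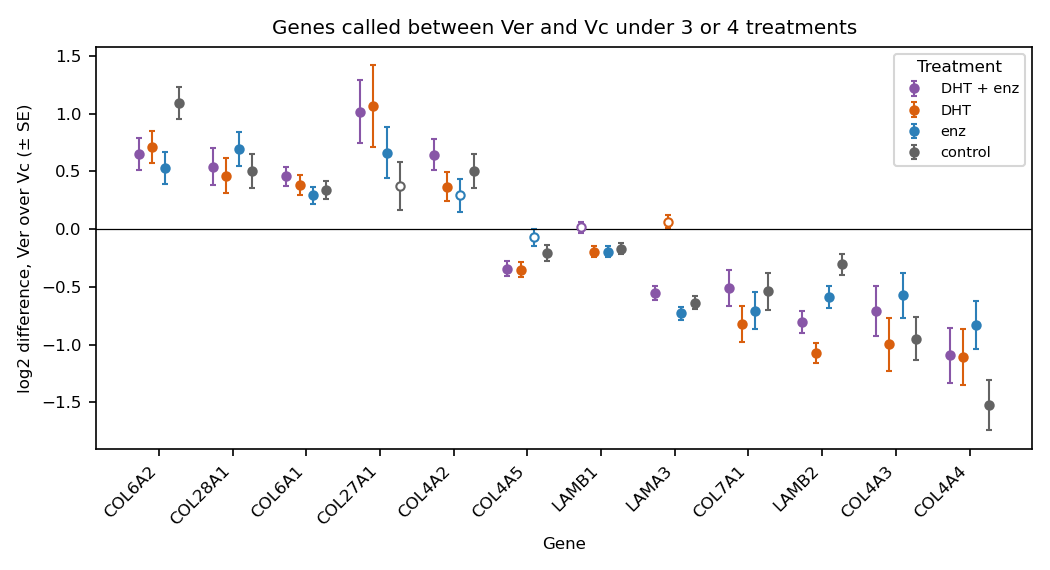
Log2 difference of Ver over Vc (y axis, point and SE) under each treatment, for the genes called in the same direction under 3 or 4 treatments (x axis); filled points were called, open points were not. COL6A2, at 0.53 to 1.09, lies above 0 and COL4A4, at -1.52 to -0.83, below 0 under all 4 treatments.

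Of the 3 tested type VI genes, COL6A1 and COL6A2 were higher in Ver under all 4 treatments and COL6A6 was called in none. COL6A2 had 23.6 and 24.2 CPM in Ver against 13.6 and 16.9 in Vc with DHT plus enzalutamide, and 26.1 and 27.2 CPM in Ver against 12.2 and 12.8 in Vc in control cells, with no overlap in any treatment. The log2 difference was 0.65 ± 0.14, adjusted p = 0.000121 with DHT plus enzalutamide, 0.71 ± 0.14, adjusted p = 2.16e-05 with DHT, 0.53 ± 0.14, adjusted p = 0.00246 with enzalutamide and 1.09 ± 0.14, adjusted p = 7.33e-11 in control cells. The call with enzalutamide ended without Ver enzalutamide library 2 (0.0949). COL6A1 was higher by smaller amounts, from 0.29 ± 0.076 with enzalutamide to 0.46 ± 0.082 with DHT plus enzalutamide, and its control call ended without Vc control library 1 (0.0652). COL28A1, a collagen with von Willebrand factor A domains like those of type VI, had 22.7 and 26.1 CPM in Ver against 15.6 and 14.6 in Vc with enzalutamide (0.70 ± 0.15, adjusted p = 8.67e-05). Its calls ended with DHT plus enzalutamide without Vc DHT plus enzalutamide library 2 (0.0708) or Ver DHT plus enzalutamide library 2 (0.0636), with DHT without Vc DHT library 2 (0.383) or Ver DHT library 1 (0.167), and in control cells without Vc control library 1 (0.15) or Ver control library 1 (0.0779).

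Within type IV, COL4A3 and COL4A4 were lower in Ver while COL4A2 was higher. COL4A4 had 2.93 and 5.37 CPM in Ver against 7.14 and 10.7 in Vc with DHT plus enzalutamide, 3.39 and 3.97 CPM in Ver against 7.72 and 8.13 in Vc with DHT, 7.48 and 7.62 CPM in Ver against 14.3 and 12.5 in Vc with enzalutamide and 5.04 and 4.74 CPM in Ver against 14.7 and 13.4 in Vc in control cells. No Ver library reached the lowest Vc library of its treatment. Its log2 difference was -1.09 ± 0.24, -1.10 ± 0.24, -0.83 ± 0.21 and -1.52 ± 0.22 in that order (largest adjusted p = 0.0011), and the call with DHT plus enzalutamide ended without Ver DHT plus enzalutamide library 1 (0.0747). COL4A3 differed by -0.71 ± 0.22, -0.997 ± 0.23, -0.57 ± 0.19 and -0.95 ± 0.19. Its calls ended with DHT plus enzalutamide without Vc DHT plus enzalutamide library 1 (0.214) or Ver DHT plus enzalutamide library 1 (0.263), and with enzalutamide without Vc enzalutamide library 2 (0.286), Ver enzalutamide library 1 (0.17) or Ver enzalutamide library 2 (0.0866). COL4A2 was higher in Ver with DHT plus enzalutamide (0.65 ± 0.13, adjusted p = 4.77e-05), with DHT (0.37 ± 0.13, adjusted p = 0.0305) and in control cells (0.50 ± 0.14, adjusted p = 0.0054). The DHT call ended without Vc DHT library 1 (0.296) or Ver DHT library 1 (0.323), and the control call without Ver control library 1 (0.0611). COL4A5 was lower in Ver with DHT plus enzalutamide (-0.34 ± 0.067, adjusted p = 1.78e-05), with DHT (-0.35 ± 0.065, adjusted p = 7.31e-06) and in control cells (-0.21 ± 0.072, adjusted p = 0.0285), the control call ending without any 1 of the 4 libraries.

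Of the laminins, LAMB2 was lower in Ver by -0.80 ± 0.093, adjusted p = 4.15e-13 with DHT plus enzalutamide, -1.07 ± 0.086, adjusted p = 3.18e-22 with DHT, -0.59 ± 0.094, adjusted p = 1.38e-07 with enzalutamide and -0.30 ± 0.092, adjusted p = 0.00966 in control cells. The control call ended without any 1 of the 4 libraries, with adjusted p up to 0.0775. LAMA3 was lower in Ver with DHT plus enzalutamide (-0.55 ± 0.057, adjusted p = 2.88e-15), with enzalutamide (-0.73 ± 0.054, adjusted p = 8.61e-25) and in control cells (-0.63 ± 0.054, adjusted p = 1.29e-20). With DHT the groups lay at 174 and 165 CPM in Ver against 169 and 155 in Vc, a log2 difference of 0.064 ± 0.057 (adjusted p = 0.525). LAMB1 was lower in Ver by at most 0.20 on the log2 scale, with DHT (-0.20 ± 0.048, adjusted p = 0.00103), enzalutamide (-0.20 ± 0.047, adjusted p = 0.00069) and in control cells (-0.17 ± 0.047, adjusted p = 0.00411), the control call ending without Vc control library 1 (0.0753). LAMA5 was lower in Ver with DHT (-0.38 ± 0.058, adjusted p = 4.73e-08) and higher in control cells (0.21 ± 0.059, adjusted p = 0.00514), the control call ending without Vc control library 1 (0.298) or Ver control library 2 (0.262). LAMC1 was lower with DHT plus enzalutamide (-0.16 ± 0.052, adjusted p = 0.014), though not without Vc DHT plus enzalutamide library 1 (0.204) or Ver DHT plus enzalutamide library 1 (0.158), and higher in control cells (0.27 ± 0.055, adjusted p = 5.48e-05). COL7A1, the anchoring fibril collagen, had 11.7 and 12.9 CPM in Ver against 23.5 and 19.7 in Vc with DHT (-0.82 ± 0.16, adjusted p = 1.04e-05). Its calls ended with DHT plus enzalutamide without Vc DHT plus enzalutamide library 2 (0.247), Ver DHT plus enzalutamide library 1 (0.0681) or Ver DHT plus enzalutamide library 2 (0.0631), with enzalutamide without Ver enzalutamide library 1 (0.0729), and in control cells without Vc control library 2 (0.0867), Ver control library 1 (0.0573) or Ver control library 2 (0.0694). COL27A1 was higher in Ver with DHT plus enzalutamide (1.02 ± 0.27, adjusted p = 0.00208), with DHT (1.06 ± 0.35, adjusted p = 0.0183) and with enzalutamide (0.66 ± 0.22, adjusted p = 0.021), and the last 2 calls ended without any 1 of their 4 libraries.

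Other line calls stood in 1 treatment each. With DHT plus enzalutamide, LAMC3 was higher in Ver (1.36 ± 0.41, adjusted p = 0.00637), though not without Ver DHT plus enzalutamide library 1 (0.111). COL18A1 was higher there (0.30 ± 0.10, adjusted p = 0.0142) and COL10A1 lower (-0.41 ± 0.14, adjusted p = 0.0261), and both calls ended without any 1 of the 4 libraries. With enzalutamide, COL26A1 was lower (-0.82 ± 0.26, adjusted p = 0.0147), though not without Vc enzalutamide library 2 (0.107), Ver enzalutamide library 1 (0.116) or Ver enzalutamide library 2 (0.0703), and COL9A2 lower (-0.43 ± 0.14, adjusted p = 0.0178), a call that ended without any 1 of the 4 libraries. In control cells, COL5A2 was lower (-0.66 ± 0.16, adjusted p = 0.000461) and COL11A2 lower (-0.86 ± 0.23, adjusted p = 0.00186), the second though not without Ver control library 1 (0.186).

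Whether the lines responded to DHT by different amounts was tested as the Ver change minus the Vc change, which compares changes within a lane. 4 of 38 genes were called, all laminins (1 higher, 3 lower), where 2.32% of all genes were (0.891% higher, 1.43% lower). LAMA3 fell less in Ver, with a difference of 0.70 ± 0.079, adjusted p = 4.36e-12 on the log2 scale. The LAMB2 rise was smaller in Ver (-0.77 ± 0.13, adjusted p = 3.86e-06), and so was that of LAMA5 (-0.59 ± 0.083, adjusted p = 5.74e-08). For LAMC1 the difference was -0.26 ± 0.075, adjusted p = 0.0411, but this call ended without Vc control library 1 (0.158), Vc control library 2 (0.111), Vc DHT library 1 (0.0913), Vc DHT library 2 (0.2), Ver control library 2 (0.293), Ver DHT library 1 (0.0612) or Ver DHT library 2 (0.149). For the enzalutamide effect on top of DHT, 2 of 38 genes were called, where 1.29% of all genes were (0.638% higher, 0.652% lower). These were LAMA3 (-0.62 ± 0.081, adjusted p = 3.07e-08) and LAMA5 (0.34 ± 0.082, adjusted p = 0.00927), and the LAMA5 call ended without Vc DHT plus enzalutamide library 1 (0.144), Ver DHT plus enzalutamide library 1 (0.334) or Ver DHT library 2 (0.109). For the effect on top of DHT, DESeq2 also called LAMB1 (log2 0.21, DESeq2 adjusted p = 0.0056), which edgeR did not call. For enzalutamide alone the difference called 0 of 38 genes in edgeR and 0 in DESeq2, where 0.0222% of all genes were called in edgeR. At an unadjusted p under 0.05 edgeR gave 5 of the 38, and the share over all genes at that threshold was not taken.

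Genes that process collagen, bind laminin networks, act as receptors or break down matrix were counted from lists. Of 30 tested genes of collagen processing, 9 rose and 14 fell with DHT in Ver, and 11 rose and 12 fell in Vc, where 21.2% of all genes rose and 22.9% fell in Ver and 21.8% rose and 22.5% fell in Vc. The median log2 change was -0.48 and -0.34, against -0.041 and -0.036 over all genes. P4HB, a subunit of the prolyl hydroxylase that stabilises the triple helix, had 1408 and 1322 CPM with DHT against 483 and 493 in control cells in Ver (1.48 ± 0.047, adjusted p = 4.15e-63) and 1258 and 1284 CPM with DHT against 438 and 432 in control cells in Vc (1.55 ± 0.047, adjusted p = 2.49e-65). PPIB, a prolyl isomerase that helps the helix fold, rose by 1.21 ± 0.062 in Ver and 1.20 ± 0.062 in Vc on the log2 scale. LOX, which crosslinks collagen fibres, had 38.1 and 40.05 CPM with DHT against 2.72 and 2.68 in control cells in Ver (3.85 ± 0.23, adjusted p = 1.69e-39) and 22.3 and 25.5 CPM with DHT against 2.23 and 3.91 in control cells in Vc (2.97 ± 0.22, adjusted p = 2.11e-29). MIA2 rose in Ver (1.09 ± 0.069, adjusted p = 2.17e-31), and ADAMTS3, a protease that trims the ends of procollagen, fell in Vc (-2.23 ± 0.16, adjusted p = 1.00e-28). For MIA2 and ADAMTS3 the value of the other line is not given here. When the Vc change with DHT was subtracted from the Ver change, 0 of these 30 genes were called, where 2.32% of all genes were. Naming a gene in a single line therefore does not mean that the lines differed.

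Of 12 tested partners of the basement membrane, 2 rose and 7 fell in Ver, and 3 rose and 7 fell in Vc (median log2 change -0.93 and -1.05). For this and the following lists, the shares over all genes were again 21.2% higher and 22.9% lower in Ver and 21.8% higher and 22.5% lower in Vc, with medians of -0.041 and -0.036. HSPG2, the gene of perlecan, had 41.9 and 39.4 CPM with DHT against 142 and 169 in control cells in Ver (-1.94 ± 0.075, adjusted p = 2.36e-53) and 48.3 and 49.5 CPM with DHT against 173 and 199 in control cells in Vc (-1.93 ± 0.071, adjusted p = 6.18e-55). FBLN2, a fibulin gene, fell, with a log2 change of -2.34 ± 0.087 in Ver and -2.49 ± 0.078 in Vc. AGRN, the gene of the laminin-binding proteoglycan agrin, fell too, with -0.90 ± 0.055 in Ver and -0.52 ± 0.054 in Vc. SMOC2, a calcium-binding matrix protein gene, rose by 2.34 ± 0.11 and 2.05 ± 0.10. Of the 13 receptor genes, 6 rose and 3 fell in Ver, and 7 rose and 3 fell in Vc (median log2 change 0.23 and 0.19). ITGB1, the beta chain of most collagen- and laminin-binding integrins, rose by 0.60 ± 0.059 in Ver and 0.60 ± 0.058 in Vc. ITGA3, an alpha chain of a laminin receptor, rose by 0.96 ± 0.10 and 1.40 ± 0.095, and DAG1, of dystroglycan, by 0.52 ± 0.055 and 0.55 ± 0.054. ITGA1, an alpha chain of a collagen receptor, had 2.94 and 6.0 CPM with DHT against 14.9 and 16.4 in control cells in Ver (-1.81 ± 0.20, adjusted p = 2.87e-15) and 11.9 and 10.4 CPM with DHT against 32.4 and 33.1 in control cells in Vc (-1.55 ± 0.15, adjusted p = 4.73e-17). Of 10 tested matrix proteases and their inhibitors, 2 rose and 5 fell in Ver, and 2 rose and 6 fell in Vc (median log2 change -1.20 and -0.997). TIMP2, an inhibitor of matrix metalloproteinases, fell, with a log2 change of -2.07 ± 0.22 in Ver and -1.94 ± 0.20 in Vc. The difference in DHT response, Ver minus Vc, was called lower for 1 of the 12 partners and 2 of the 13 receptor genes, and higher for 0. It was called for 0 of the 10 proteases and inhibitors, where 0.891% of all genes were called higher and 1.43% lower.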

How the data were processed

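PolyA RNA sequencing of 16 VCaP libraries was analysed. The authors deposited a file of read counts per gene for each library, and 1 table of normalized signal per gene and library. That deposited signal equals the counts divided by size factors, and it was used here only to choose the genes by symbol. Per the submitters' processing notes, HTSeq 0.11.1, SAMtools, HISAT2, Trimmomatic 0.36-5 and FastQC 0.11.7 were used with the GRCh38 genome. Per the names of the deposited count files, counting was in union mode without strand, so reads from genes that overlap on either strand cannot be told apart. The 5 summary lines of each file were set aside. Reads in no gene made up 45.0 to 50.6% and ambiguous reads 7.09 to 8.55%.

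The tests used edgeR 4.0.16 (R 4.3.3): filterByExpr by group (22553 genes, 38 of the 54 genes described), TMM scaling, and the robust two-sided quasi-likelihood F test fitted to 8 groups of 2 (residual degrees of freedom 8, common BCV, the biological coefficient of variation, 6.01%), adjusted by Benjamini-Hochberg over all genes. 13 comparisons were made. Every adjusted p is from this test unless DESeq2 1.42.0 is named. An SE is the Wald standard error from the fitted variance, or from Poisson counting where larger, and 95% intervals follow from it. CPM use TMM-adjusted totals, and RPKM divide them by the exon length of GENCODE 29. Promoter windows are RefSeq's. The test was also run on simulated counts, with far fewer changed genes than were called with DHT here. The outcome of that run is not given, and nothing above rests on it.

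The genes, the pathway lists, the marker lists and the naming rule were chosen with earlier results of these data known. By that rule, any expressed collagen or laminin gene may be named, up to 12 called genes per comparison with at least 5 CPM are given by size of change, and the 4 genes of a pathway list with the smallest adjusted p may be named; lower or further called collagens and laminins were named after their values were seen. Alternatives were other scaling, no low-count filter, DESeq2, the replicate number as a term, only the groups compared, and leaving out each library. Values of 1 of the 38 tested genes are not reported here.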

Additional observations from a re-analysis of the deposited data

Results flagged for a closer look

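6 values stood out because the lines differed in a direct test of their difference, Ver minus Vc, all of them laminin genes. In the response to DHT, the log2 difference was 0.70 for LAMA3, -0.77 for LAMB2, -0.59 for LAMA5 and -0.26 for LAMC1. In the effect of enzalutamide on top of DHT, it was -0.62 for LAMA3 and 0.34 for LAMA5. For LAMA3 both differences were called without each of the 8 libraries in turn, and so were the DHT differences of LAMB2 and LAMA5. The 2 sets of differences share the DHT libraries. Lines and lanes coincide, but each change was taken within a lane.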

How the results depend on the processing

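Apart from leaving out 1 library, the counts of called genes changed by over 1.5 times, against those of the edgeR fit, in the following cases. Leaving out 1 library, given below, also changed some counts by over 1.5 times, those between Ver and Vc among them. The cause of these changes was not tested. For DHT plus enzalutamide against DHT in Vc the count was 7 with no low-count filter and 7 with DESeq2, against 11. For enzalutamide alone in Vc it was 1 with DESeq2, against 0. With a minimum of 1 RPKM, 24 genes were expressed, against 38. That number was 41 with a minimum of 0.5 CPM, 26 with 5 CPM, 38 with size factors of the DESeq2 type, and 38 without replicate 1 or without replicate 2 of every group.

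Leaving out 1 library at a time, where a lone library is assumed to vary like the other groups, gave 16 to 20 genes for DHT in Ver and 20 to 25 in Vc, and 0 to 0 for enzalutamide in both lines. It gave 11 to 14 for DHT plus enzalutamide against DHT in Ver and 6 to 10 in Vc. Between Ver and Vc it gave 8 to 12 with DHT plus enzalutamide, 9 to 11 with DHT, 7 to 10 with enzalutamide and 9 to 12 in control cells. The difference between the lines gave 3 to 4 for DHT, 0 to 0 for enzalutamide and 1 to 2 for enzalutamide on top of DHT; the count of 1 came without Ver DHT plus enzalutamide library 1, Ver DHT library 2 or Vc DHT plus enzalutamide library 1.

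Of 131 called gene values, 129 kept their call with size factors of the DESeq2 type and 122 with no low-count filter. DESeq2 kept 107 of the 130 it gave a value for, the fit of only the groups compared 124 of 129, and leaving out 1 library 422 of 548. None of these changed sign. The LAMC1 difference in DHT response had adjusted p = 0.146 with no filter and 0.0571 with only the groups compared.

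No shared deviation of same-numbered libraries was seen: over 28 pairs of groups, their deviations correlated from -0.023 to 0.028. This does not tell whether libraries of the same number were prepared together. With the replicate block, all 131 of 131 gene values kept their call and the counts of called genes stayed as they were, 19 for DHT in Ver and 27 in Vc. With 2 libraries a group, genes of low count (LAMA1, LAMA4, COL5A1) are the least certain.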
